A study of Mus musculus with 8 samples.

Results

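Cells given tamarixetin were set against cells given Torin1, with 2 microarrays in each group, among the 8 arrays of a study of J774.1 cells. J774.1 cells are a line with macrophage features derived from a BALB/c mouse. Tamarixetin was given at 10 µM and Torin1 at 1 µM, both for 6 h, and the authors' design text calls the 2 arrays of a group biological replicates. The other arrays are 2 of control cells, whose vehicle and time are not given in the sources used here, and 2 of cells given isorhamnetin at 10 µM for 6 h. Members were the arrays whose labels name tamarixetin or Torin1, 4 of 8. Both groups lay in 1 row of 1 slide, tamarixetin in columns 1 and 2 and Torin1 in columns 3 and 4, so column and group cannot be told apart. The compounds differ in dose as well as in kind, and all cells are of 1 line.

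Tamarixetin is an O-methylated form of the plant flavonol quercetin. Torin1 occupies the ATP site of the kinase mTOR and blocks both of its complexes. mTOR complex 1 works on the surface of the lysosome, where amino acids and growth factors switch it on. It favours the synthesis of proteins, sterols and nucleotides, raises translation of the transcription factor ATF4, and holds the MiT/TFE factors of lysosomal genes in the cytoplasm by phosphorylating them. Autophagy, the delivery of cell contents to lysosomes, is held back by the same complex. mTOR complex 2 acts through the kinase AKT, which keeps FOXO factors out of the nucleus.

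Levels are log2 signals from which each array's 75th percentile was subtracted. A difference is tamarixetin minus Torin1, so a positive value is higher with tamarixetin. A gene was called at an adjusted p below 0.05 in the moderated test of limma, n = 2 arrays per group. Of 21528 genes tested, 9300 were called (43.2%), 4898 higher with tamarixetin (22.8%) and 4402 higher with Torin1 (20.4%). Most calls were small: 5523 differed by less than 1.5-fold, and the median size of a called difference was 0.50. Differences of at least 2-fold were called for 1465 genes (6.81%), of which 414 were higher with tamarixetin (1.92%) and 1051 with Torin1 (4.88%). At 4-fold or more the counts were 77 and 227. The arrays of the 2 groups did not overlap for 15287 genes (71%), and the median difference over all genes was 0.00. The 2 tamarixetin arrays had a 75th percentile signal of 626 and 558, and the 2 Torin1 arrays of 559 and 546. Of 13 macrophage markers 12 were well above background on all 4 arrays. The same held for 0 of 7 dendritic, 0 of 6 B cell, 0 of 7 fibroblast, 0 of 6 endothelial and 0 of 6 epithelial markers, 2 of 8 for neutrophils, 3 of 7 for T cells and 1 of 5 for erythroid cells. Among these minor markers Lck (0.59), S100a8 (-0.45) and Kdr (0.46), an endothelial marker not well above background on any of the 4 arrays, were called between the groups, and their part in the results was not tested.

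**Figure D1:**
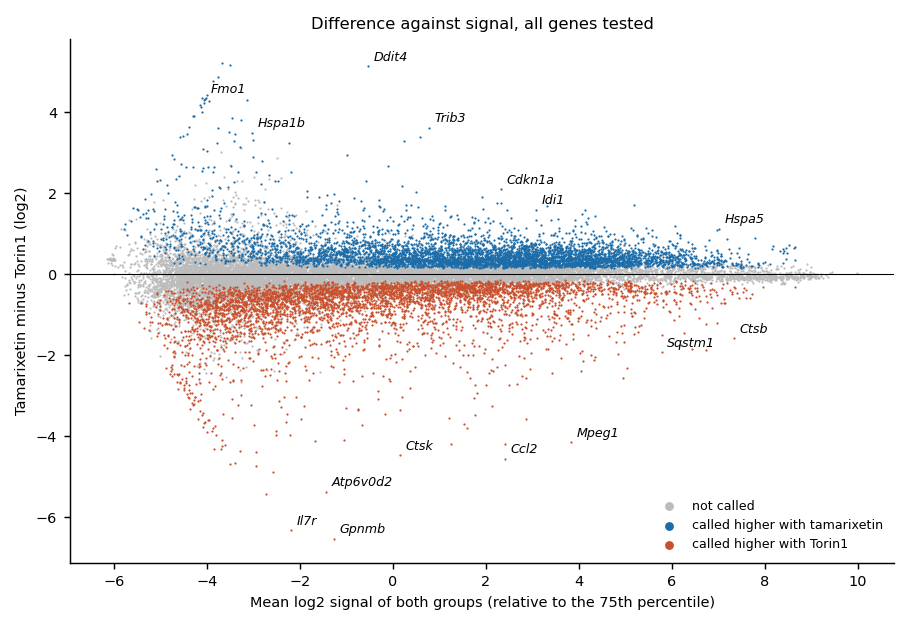
Difference between tamarixetin and Torin1 (vertical axis, log2) against the mean signal of both groups (horizontal axis, log2, 75th percentile subtracted) for 21528 genes. Blue and orange points are genes called higher with tamarixetin and with Torin1, and grey points were not called. Gpnmb, at -6.52, lies lowest.

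Both compounds can be set against the control cells, but those comparisons share the control arrays, so their values are only placed side by side. Tamarixetin minus control called 16 genes (0.0743%), 14 higher and 2 lower. Torin1 minus control called 10481 genes (48.7%), 4581 higher and 5900 lower. Gene lists for the pathways that mTOR is known for, and for macrophage functions, were counted in both. Of 1065 list members tested, limma called 0 between tamarixetin and control, with 104 at an unadjusted p below 0.05 and 3 called when the variance was fitted with a trend and robustly. Over all 21528 genes tested, 2982 had an unadjusted p below 0.05 in the same comparison by limma. The medians of the 46 lists lay between -0.15 and 0.01 for tamarixetin minus control. The control arrays lay in the other row of the slide, so row and group cannot be told apart there.

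**Figure D2:**
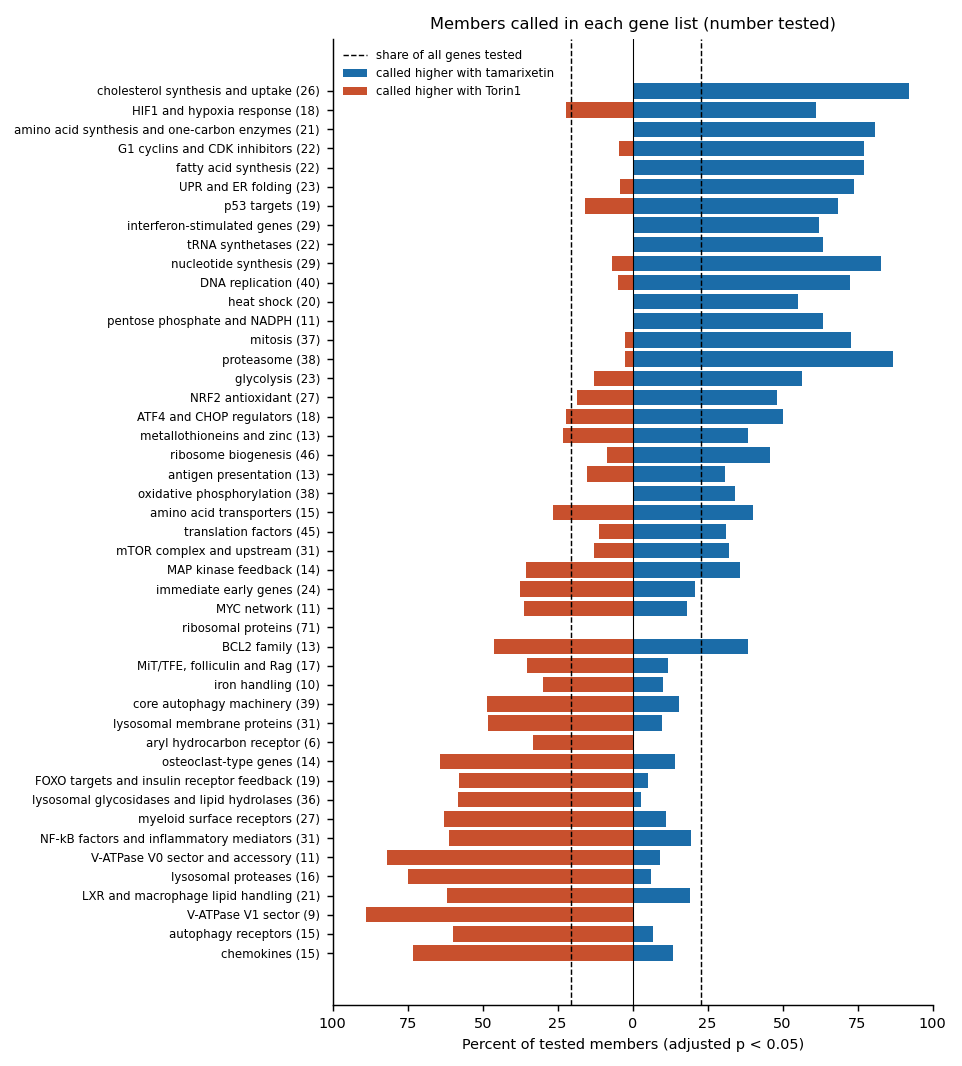
Percent of the tested members of each gene list called higher with tamarixetin (blue, right) and higher with Torin1 (orange, left), ordered by the median difference; the number tested stands after each name. Dashed lines mark the shares of all genes tested, 22.8% and 20.4%; cholesterol synthesis has 24 of 26 members on the right and the V1 sector of the proton pump 8 of 9 on the left.

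Among called genes with a standard gene symbol and measured on all 4 arrays, Ddit4 had the largest difference toward tamarixetin. Ddit4 encodes REDD1, an inhibitor of mTOR complex 1. Its level was 2.06 and 2.00 with tamarixetin and -3.25 and -2.96 with Torin1, a difference of 5.14 ± 0.11 (SE, adjusted p = 2.0e-05). Control cells were at 2.33 and 2.19, next to tamarixetin. In cultures read whole, fewer cells with a transcript and less of it per cell cannot be told apart. Trib3, a pseudokinase induced by the ATF4 and CHOP factors, was at 2.76 and 2.44 with tamarixetin and -0.99 and -1.06 with Torin1, a difference of 3.62 ± 0.11 (adjusted p = 4.0e-05). Chac1, a glutathione-degrading enzyme under the same factors, was at 1.99 and 1.79 against -1.23 and -1.56. Gadd45g, a growth arrest gene, was at 0.50 and 0.48 against -2.41 and -2.48, a difference of 2.94 ± 0.05, and Dusp14, a phosphatase of MAP kinases, differed by 2.68. Cdkn1a, the CDK inhibitor p21, differed by 2.11. These 6 genes were chosen among called genes whose tamarixetin and Torin1 arrays did not overlap, so their lack of overlap was fixed by that choice.

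Toward Torin1, the largest difference among called genes with a standard symbol and measured on all 4 arrays was that of Ccl2, the monocyte chemoattractant. It was at 0.21 and 0.05 with tamarixetin and 4.71 and 4.64 with Torin1, a difference of -4.54 ± 0.07 (SE, adjusted p = 9.2e-06). Ctsk, the lysosomal protease cathepsin K, was at -2.09 and -2.08 against 2.39 and 2.37, a difference of -4.47 ± 0.05. Atf3, a stress-induced transcription factor, was at -0.79 and -0.88 against 3.32 and 3.36, and Mpeg1, the pore-forming protein perforin-2 of macrophages, at 1.76 and 1.76 against 5.90 and 5.89. Cd83, a surface protein of activated antigen-presenting cells, differed by -4.17, Klhl24, a ubiquitin ligase adaptor, by -4.08, and Rgs1, which turns off G protein signals, by -3.69. All these genes lay within 0.33 of control on the tamarixetin side, Klhl24 being farthest at -0.33, and none of them was called there. A further 545 called genes were well above background on both Torin1 arrays and on neither tamarixetin array, so that only a lower bound of the fold can be given. The control and isorhamnetin arrays did not enter this count. Gpnmb, a lysosomal membrane glycoprotein, was at 1.94 and 2.05 with Torin1 and not well above background with tamarixetin, at least 51.65-fold higher (adjusted p = 4.2e-06). In control cells Gpnmb was well above background, at -3.92 and -3.85. Its tamarixetin minus control difference was -0.65 and was not called. Il7r, the receptor chain for interleukin 7, was at least 25.41-fold higher and Hal, histidine ammonia-lyase, at least 16.55-fold.

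**Figure D3:**
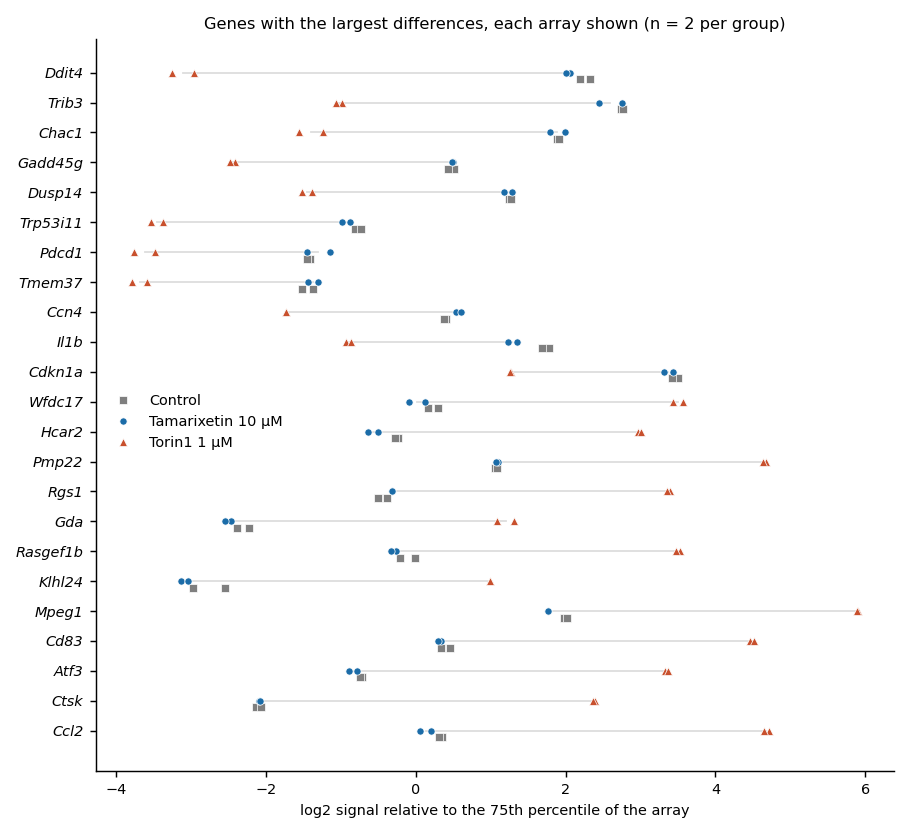
Level of genes with a standard gene symbol and the largest called differences, 11 higher with tamarixetin and 12 higher with Torin1, measured on all 4 arrays. The horizontal axis is log2 signal relative to the 75th percentile. Each marker is 1 array, and grey lines join the means of tamarixetin and Torin1. The tamarixetin arrays lie beside the control arrays, with the largest gap for Il1b (-0.45), while the Torin1 arrays stand apart.

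Genes of the lysosome were higher with Torin1. Of 16 lysosomal proteases tested 12 were called higher with Torin1 and 1 with tamarixetin, with a median difference of -0.55. Cathepsin B (Ctsb), a cysteine protease, was at 6.56 and 6.53 with tamarixetin and 8.16 and 8.07 with Torin1, a difference of -1.57 ± 0.07 (SE, adjusted p = 0.00011). Cathepsin D (Ctsd), the main aspartic protease, differed by -1.50 and legumain (Lgmn), which trims cathepsins, by -1.46. Ctsc, which activates granule serine proteases, went the other way, at 3.09 and 3.06 against 2.66 and 2.64. Of 36 glycosidases, lipid hydrolases and their helpers 21 were higher with Torin1 and 1 with tamarixetin (median -0.45), the 1 becoming 0 without any 1 array but Torin1 replicate 2. Naglu, an enzyme of heparan sulphate breakdown, led them at -1.49, and Psap, the precursor of the saposins, had -1.07. Of 31 membrane proteins 15 were higher with Torin1 and 3 with tamarixetin (median -0.26), though the 3 became 0 or 1 when any tamarixetin or Torin1 array was left out. The chloride-proton exchanger Clcn7 differed by -1.52 ± 0.05, the calcium channel Mcoln1 by -0.89 and Lamp1, a major coat protein, by -0.61. Against control, the 3 lists had medians of -0.11, -0.09 and -0.07 in the tamarixetin arrays and 0.41, 0.40 and 0.22 in the Torin1 arrays.

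The proton pump that acidifies the lysosome, the V-ATPase, showed this in both of its sectors. Of 9 subunits of V1, the sector that splits ATP, 8 were higher with Torin1 and 0 with tamarixetin (median -0.61). Atp6v1a, the catalytic subunit, was at 4.22 and 4.20 with tamarixetin and 5.64 and 5.66 with Torin1, a difference of -1.44 ± 0.05 (SE, adjusted p = 5.4e-05). Atp6v1d, of the central stalk, differed by -1.13. The remaining subunit, Atp6v1h, had -0.17 and was not called. Of 11 genes of V0, the membrane sector that carries protons, and its accessory proteins 9 were higher with Torin1 and 1 with tamarixetin; without Torin1 replicate 2 the 9 became 5. Tcirg1, the a3 subunit, differed by -1.30 and Atp6v0c, of the proton-carrying ring, by -0.74. Atp6v0d2, the d2 subunit of macrophages and osteoclasts, was at least 30.70-fold higher with Torin1. Atp6v0e2 was the member higher with tamarixetin, by 0.50 ± 0.05.

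**Figure D4:**
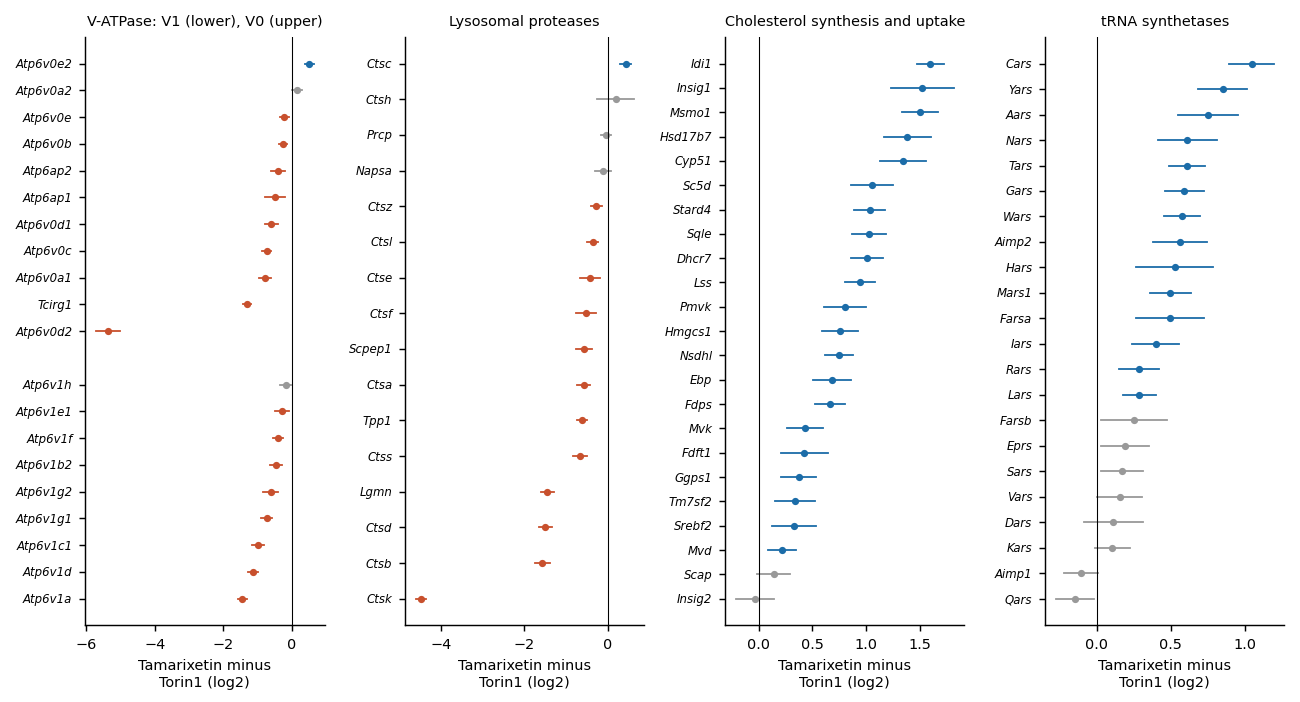
Difference tamarixetin minus Torin1 (log2) for tested subunits of the V-ATPase, lysosomal proteases, tRNA synthetases and most genes of cholesterol synthesis and uptake. Points are the fitted differences and lines their 95% intervals; blue and orange mark genes called higher with tamarixetin and with Torin1, and grey genes were not called. Horizontal scales differ between panels.

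The MiT/TFE factors are known to bind the motif TCACGTGA near lysosomal genes. It was searched on both strands, where it reads the same, in the RefSeq windows from 250 bases before to 50 after each gene start (GRCm38.p6). It occurred in 304 of 27025 genes with a window (1.12%) and in 14 of the 85 genes of the 5 lysosome and V-ATPase lists that have one (16.5%). It stood in 2 of 13 proteases, 3 of 28 hydrolases, 6 of 26 membrane proteins, 1 of 8 V1 and 2 of 10 V0 genes. A match is a description of the letters and not of binding. The 4 stretches below are shown because they join the motif to genes higher with Torin1; each is written along the strand of the gene, with the motif in capitals, and ends no later than the base before the start.
Atp6v1a: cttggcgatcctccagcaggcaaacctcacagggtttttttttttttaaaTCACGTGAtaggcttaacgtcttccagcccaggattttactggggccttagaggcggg
Ctsd: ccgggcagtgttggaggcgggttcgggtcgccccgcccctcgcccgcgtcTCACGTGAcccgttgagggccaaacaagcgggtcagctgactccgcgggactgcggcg
Mcoln1: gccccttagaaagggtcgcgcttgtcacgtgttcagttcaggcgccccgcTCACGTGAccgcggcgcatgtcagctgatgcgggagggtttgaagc
Pip4p1: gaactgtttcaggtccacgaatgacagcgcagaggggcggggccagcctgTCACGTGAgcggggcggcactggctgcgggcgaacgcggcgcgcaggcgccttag
They lie at chr16:44139334-44139441 (minus strand), chr7:142387869-142387976 (minus), chr8:3500423-3500518 (plus) and chr14:50930850-50930954 (minus). The motif begins 132, 99, 46 and 55 bases before the start. The differences of these genes were -1.44 for Atp6v1a, -1.50 for Ctsd, -0.89 for Mcoln1 and -0.57 for Pip4p1, a lysosomal lipid phosphatase. Of the 14 genes with the motif 11 were called higher with Torin1 and 0 with tamarixetin, where 20.4% and 22.8% of all genes were. The 3 not called were Gla (-0.01), an alpha-galactosidase, Slc36a1 (-0.04), an amino acid carrier of the lysosome, and Clcn6 (-0.34), a chloride-proton exchanger. In the lists as a whole 12 of 16 proteases, 21 of 36 hydrolases and 15 of 31 membrane proteins were higher with Torin1. So were 8 of 9 V1 and 9 of 11 V0 genes. Whether genes with the motif differed from the rest of their lists was not tested.

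More genes of autophagy were higher with Torin1 than with tamarixetin. Of 39 genes of the core machinery 19 were higher with Torin1 and 6 with tamarixetin (median -0.20), and the 6 became 1 to 3 without tamarixetin replicate 1, tamarixetin replicate 2 or Torin1 replicate 1. Tecpr1, which acts where autophagosomes meet lysosomes, was at 0.49 and 0.24 with tamarixetin and 1.89 and 1.67 with Torin1. Atg2a, a lipid transfer protein, and Wdr45, a phosphoinositide reader, each differed by -1.09, Atg14, of the lipid kinase complex, by -0.99 and the initiating kinase Ulk1 by -0.67. Becn1, of the same lipid kinase complex, had 0.00 and was not called. Among the 15 receptors that select cargo 9 were higher with Torin1. Sqstm1, or p62, was at 4.85 and 4.79 against 6.71 and 6.78, a difference of -1.92 ± 0.06 (SE, adjusted p = 5.3e-05), and Nbr1 differed by -1.23. Bnip3, a receptor on mitochondria that is also a hypoxia gene, was the 1 receptor called higher with tamarixetin in the fit of all arrays, by 1.44; without either isorhamnetin array 2 were called.

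Of the genes that place mTOR complex 1 on the lysosome and control MiT/TFE factors 6 of 17 were higher with Torin1 and 2 with tamarixetin. In all 47.1% were called, close to the 43.2% of all genes tested, and the 2 became 0 or 1 when any 1 array was left out. Those higher with Torin1 included partners in 1 complex: Fnip2 was at 1.57 and 1.60 with tamarixetin and 4.13 and 4.16 with Torin1 (-2.56 ± 0.05, SE, adjusted p = 1.1e-05), Fnip1 differed by -1.25 and Flcn, folliculin, by -0.97. The GTPase Rragc differed by -0.81. The transcription factor Tfeb itself had 0.10 ± 0.12 and was not called. Among 31 genes of the mTOR complexes and their upstream regulators 10 were higher with tamarixetin and 4 with Torin1, with a median of 0.00; 45.2% were called, again close to the 43.2% of all genes, and without Torin1 replicate 1 the 10 became 4. Besides Ddit4, the stress-induced inhibitors Sesn2 (1.05) and Sesn1 (1.03) were higher with tamarixetin, while Rptor, the scaffold of complex 1, was higher with Torin1 (-0.77). FOXO targets and insulin receptor feedback genes had 11 of 19 members higher with Torin1 and 1 with tamarixetin, the 1 becoming 2 without tamarixetin replicate 2. Klf6, a zinc finger factor, differed by -2.44, Bcl2l11, the pro-death protein BIM, by -1.98, Sod2, a mitochondrial superoxide dismutase, by -1.04 and Insr, the insulin receptor, by -0.75. Irs2, an adaptor of that receptor, was near background in both groups and was not called.

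Genes of the ATF4 programme were higher with tamarixetin, with exceptions. Of 18 ATF4 and CHOP regulators and partners 9 were higher with tamarixetin and 4 with Torin1. Atf4 was at 7.49 and 7.55 with tamarixetin and 6.46 and 6.37 with Torin1, a difference of 1.105 ± 0.07 (SE). Ddit3, or CHOP, differed by 1.29 and Nupr1, a stress cofactor, by 1.60. The 4 on the other side were Atf3 (-4.18), Ndrg1 (-1.83), a hypoxia-induced gene, Cebpb (-1.41), a partner of ATF factors, and Ppp1r15a (-0.51), which restores translation by recruiting a phosphatase. Of 21 enzymes of amino acid synthesis and one-carbon metabolism 17 were higher with tamarixetin and 0 with Torin1 (median 0.56). Cth, which makes cysteine, was at 1.43 and 1.34 against -0.37 and -0.21, a difference of 1.67 ± 0.07 (adjusted p = 8.9e-05). Psph, the last step of serine synthesis, differed by 1.08 and Asns, asparagine synthetase, by 0.60. Of 22 tRNA synthetases and their cofactors 14 were higher with tamarixetin and 0 with Torin1 (median 0.45), led by Cars for cysteine (1.04) and Yars for tyrosine (0.85). Amino acid transporters were divided, 6 of 15 higher with tamarixetin and 4 with Torin1, the 4 becoming 2 without tamarixetin replicate 1 or any 1 Torin1 or isorhamnetin array. Slc6a9, a glycine carrier, differed by 1.46 and Slc38a7, a glutamine carrier of lysosomes, by -0.97. Slc7a11, the cystine carrier, had -0.14 ± 0.05 and was not called (adjusted p = 0.087).

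ATF4 pairs with C/EBP factors on sites such as TGATGCAA. This motif and its reverse complement TTGCATCA occurred in 279 of 27025 genes with a window (1.03%) and in 13 of the 64 genes of these 4 lists that have one (20.3%). The shares were 4 of 18 regulators, 2 of 18 enzymes, 3 of 13 transporters and 4 of 15 synthetases. The stretches below show the same letters near 3 genes higher with tamarixetin and 1 higher with Torin1, again along the gene's strand with the motif in capitals.
Chac1: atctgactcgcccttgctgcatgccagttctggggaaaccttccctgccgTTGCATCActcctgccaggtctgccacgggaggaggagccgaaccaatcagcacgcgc
Nupr1: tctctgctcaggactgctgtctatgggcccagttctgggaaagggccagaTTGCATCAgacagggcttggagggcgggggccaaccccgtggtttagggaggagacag
Aars: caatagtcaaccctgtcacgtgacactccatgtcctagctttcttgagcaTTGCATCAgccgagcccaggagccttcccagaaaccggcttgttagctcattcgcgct
Atf3: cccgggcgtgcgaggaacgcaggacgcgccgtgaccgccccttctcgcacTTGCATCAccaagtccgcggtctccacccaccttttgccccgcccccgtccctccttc
They lie at chr2:119350999-119351106 (plus strand), chr7:126625523-126625630 (minus), chr8:111033680-111033787 (plus) and chr1:191183386-191183493 (minus), from the same RefSeq table. The motif begins 193, 110, 112 and 110 bases before the start. The differences were 3.29 for Chac1, 1.60 for Nupr1, 0.75 for Aars, the alanine synthetase, and -4.18 for Atf3. The Aars stretch also holds the motif TCACGTGA, in small letters, though Aars is in none of the lysosome lists. Of the 13 genes with the motif 11 were tested, of which 7 were called higher with tamarixetin and 2 with Torin1. Over all genes tested the shares were 22.8% and 20.4%. Of all members tested, 9 of 18 regulators, 17 of 21 enzymes, 6 of 15 transporters and 14 of 22 synthetases were higher with tamarixetin. With Torin1 4 regulators, 0 enzymes, 4 transporters and 0 synthetases were higher. Whether genes with the motif differed from the rest of their lists was not tested. Slc7a11 held the motif in both orientations and was not called.

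Genes of sterol and fatty acid synthesis, controlled by the SREBP factors, were higher with tamarixetin. Of 26 genes of cholesterol synthesis and uptake 24 were higher with tamarixetin and 0 with Torin1 (median 0.88), the highest median of the 46 lists, and 12 of them differed at least 2-fold. Idi1, an isomerase early in the pathway, was at 3.90 and 3.86 with tamarixetin and 2.31 and 2.25 with Torin1, a difference of 1.60 ± 0.05 (SE, adjusted p = 4.3e-05). Cyp51, a sterol demethylase, differed by 1.35, Sqle, squalene epoxidase, by 1.03 and Hmgcs1, a synthase early in the pathway, by 0.76. Srebf2, the factor itself, differed by 0.33. Scap, its escort, and Insig2, which retains it in the endoplasmic reticulum, were not called. Of 22 genes of fatty acid synthesis 17 were higher with tamarixetin and 0 with Torin1 (median 0.52). Scd2, a desaturase, was at 6.01 and 6.07 against 4.39 and 4.27, and Elovl6, an elongase, differed by 1.11. Genes of lipid storage and export went the other way, 13 of 21 higher with Torin1 and 4 with tamarixetin (median -0.55). Fabp4, a fatty acid carrier, differed by -2.32, Nceh1, a cholesteryl ester hydrolase, by -1.98, and the sterol exporters Abcg1 and Abca1 by -1.58 and -1.17. Lpl, lipoprotein lipase, was higher with tamarixetin by 1.18. Against control, the cholesterol list had a median of -0.06 with tamarixetin and -0.94 with Torin1.

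Carbon and nucleotide metabolism was mostly higher with tamarixetin. Of 23 glycolysis genes 13 were higher with tamarixetin and 3 with Torin1 (median 0.29). Slc16a3, the lactate exporter, and Pfkp, a phosphofructokinase, each differed by 1.14, and Slc2a1, the glucose transporter, by 0.57. The hexokinases diverged: Hk2 was at 3.09 and 3.11 with tamarixetin and 2.46 and 2.40 with Torin1, while Hk3, the form of myeloid cells, was at 2.68 and 2.49 against 4.64 and 4.64. Of 18 genes of the hypoxia response 11 were higher with tamarixetin and 4 with Torin1 (median 0.62), with Car12, a carbonic anhydrase, at 1.00 and Bhlhe40, a transcriptional repressor, at -2.09. Of 11 pentose phosphate and NADPH genes 7 were higher with tamarixetin and 0 with Torin1, among them G6pdx, the entry enzyme, at 0.85. Of 29 nucleotide synthesis genes 24 were higher with tamarixetin and 2 with Torin1 (median 0.40), the 2 becoming 1 without tamarixetin replicate 2 or Torin1 replicate 2. Tk1, thymidine kinase, differed by 1.38 ± 0.10 (SE, adjusted p = 0.00042), Rrm2, a ribonucleotide reductase subunit, by 1.09, and Tyms, thymidylate synthase, by 0.90.

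Transcripts of the translation machinery differed little in size. Of 71 ribosomal protein genes limma called 0, with 2 at an unadjusted p below 0.05 and a median of -0.05. The list also held Rack1 and lacked Rpl3, Rpl4, Rpl5, Rpl6, Rpl7, Rpl8 and Rpl9, so the count does not cover these. With the variance fitted with a trend and robustly 1 was called. Under quantile normalization 4 were called higher with Torin1, and 1 without either control array. Of 46 ribosome biogenesis genes 21 were higher with tamarixetin and 4 with Torin1 (median 0.20), the 21 becoming 13 without Torin1 replicate 2. The 4 became 2 without tamarixetin replicate 1, 1 without Torin1 replicate 1 and 9 under quantile normalization. Nop16 (0.64) and Bop1 (0.57), nucleolar assembly factors, were among the 21, and Polr1c, a subunit of RNA polymerases I and III, was on the other side (-0.65). Of 45 translation factors 14 were higher with tamarixetin and 5 with Torin1, at 42.2% called close to the 43.2% of all genes, and the 5 became 2 without tamarixetin replicate 1 and 3 without either Torin1 array. Eif2b4, of the exchange factor for initiation, differed by 0.66. Myc, a driver of ribosome synthesis, was at 1.48 and 1.45 with tamarixetin and 3.22 and 3.27 with Torin1, a difference of -1.78 ± 0.08 (SE, adjusted p = 9.6e-05), and 4 of the 11 genes of its network were higher with Torin1 and 2 with tamarixetin. Of 38 genes of oxidative phosphorylation 13 were higher with tamarixetin and 0 with Torin1 (median 0.14), the 13 becoming 7 to 8 without tamarixetin replicate 2 or either Torin1 array. In all 34.2% of these 38 genes were called, below the 43.2% of all genes. Their differences did not exceed 0.48, the value of Sdhd, a subunit of succinate dehydrogenase.

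Cell cycle genes were mostly higher with tamarixetin, and most differences were under 2-fold. Of 22 genes of G1 cyclins, their inhibitors and E2F factors 17 were higher with tamarixetin, 4 of them at least 2-fold, and 1 with Torin1 (median 0.54). The 1 became 0 without either control array, tamarixetin replicate 2 or Torin1 replicate 1. The cyclins Ccnd2, Ccnd3 and Ccnd1 differed by 1.98, 1.33 and 0.80. Ccnd3 was at 4.58 and 4.60 with tamarixetin and 3.27 and 3.25 with Torin1. Of 40 DNA replication genes 29 were higher with tamarixetin, 1 of them at least 2-fold, and 2 with Torin1 (median 0.39), the 2 becoming 1 without tamarixetin replicate 2 or either Torin1 array. Cdc6, which loads the replicative helicase, differed by 1.01, while Cdt1, which acts beside it, was higher with Torin1 (-0.79 ± 0.06, SE). Of 37 mitosis genes 27 were higher with tamarixetin and 1 with Torin1 (median 0.36), the 1 becoming 0 without tamarixetin replicate 1 or Torin1 replicate 2, with the kinases Aurkb and Aurka at 0.83 and 0.75 and the cyclin Ccna2 at 0.70.

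Genes of protein quality control were also higher with tamarixetin. Of 38 proteasome genes 33 were higher with tamarixetin and 1 with Torin1, but the median was only 0.33 and without Torin1 replicate 2 the 33 became 21 and the 1 became 0. The subunits of the immunoproteasome, Psmb10, Psmb8 and Psmb9, had the largest differences, 0.78, 0.75 and 0.66. Of 23 genes of the unfolded protein response and protein folding in the endoplasmic reticulum 17 were higher with tamarixetin and 1 with Torin1 (median 0.51). Herpud1, of the disposal pathway, was at 4.25 and 4.06 with tamarixetin and 2.52 and 2.40 with Torin1, a difference of 1.70 ± 0.09 (SE, adjusted p = 0.00017), and Hspa5, the chaperone BiP, differed by 1.13. Of 20 heat shock genes 11 were higher with tamarixetin and 0 with Torin1. Hspa1b, an inducible HSP70, was at least 6.997-fold higher with tamarixetin; it has a near-identical copy, Hspa1a, whose transcripts its probe may also bind. Of 27 NRF2 antioxidant genes 13 were higher with tamarixetin and 5 with Torin1, the 5 becoming 2 or 3 without tamarixetin replicate 2 or either Torin1 array. Srxn1, sulfiredoxin, differed by 0.98 and Gclm, of glutathione synthesis, by 0.67. Hmox1, haem oxygenase, was higher with Torin1 by a difference of -0.52, a call lost without Torin1 replicate 2 (adjusted p = 0.054).

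Inflammatory genes fell on both sides. Of 31 NF-kB factors and inflammatory mediators 19 were higher with Torin1 and 6 with tamarixetin (median -0.48). Il1rn, the antagonist of the interleukin 1 receptor, was at 0.22 and 0.20 with tamarixetin and 3.26 and 3.27 with Torin1, a difference of -3.06 ± 0.05 (SE, adjusted p = 9.2e-06). Il1b, the ligand that it opposes, was at 1.35 and 1.23 against -0.93 and -0.86, a difference of 2.19 ± 0.07 (adjusted p = 5.4e-05). This ligand and its antagonist lay in opposite directions between the same arrays. Il10, an anti-inflammatory cytokine, differed by -2.67, Pim1, a cytokine-induced kinase, by -2.44 and Tnf by -0.62. Of 15 chemokine genes 11 were higher with Torin1 and 2 with tamarixetin (median -1.42), the lowest median of the 46 lists. Ccl7, a monocyte attractant, was at least 11.78-fold higher with Torin1, and Ccl4 and Ccl3, attractants of macrophages and T cells, differed by -1.74 and -1.23. Of the 11, 7 were well above background on all 4 arrays. Cxcl10, an interferon-induced chemokine, was higher with tamarixetin by 1.14.

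Of 29 interferon-stimulated genes 18 were higher with tamarixetin and 0 with Torin1 (median 0.47). The 0 became 1 without either control array and 2 without Torin1 replicate 2. Differences in this list ran from -2.25, for a member that was not called, to 1.41. Rtp4 was at 2.03 and 1.82 with tamarixetin and 0.55 and 0.48 with Torin1, a difference of 1.41 ± 0.10 (SE, adjusted p = 0.00035). Isg15, a ubiquitin-like modifier, differed by 1.18 and Dhx58, a sensor of viral RNA, by 1.05. Usp18, which removes ISG15 from proteins, had -0.20 ± 0.10 and was not called (adjusted p = 0.19). Immediate early genes had 9 of 24 members higher with Torin1 and 5 with tamarixetin. Egr1, the zinc finger factor, was at -0.14 and -0.35 with tamarixetin and -1.96 and -2.16 with Torin1, whereas its relative Egr3 was at least 2.34-fold higher with Torin1. Of 14 feedback genes of MAP kinases 5 were higher with tamarixetin and 5 with Torin1, the first 5 becoming 3 without tamarixetin replicate 2 or either Torin1 array. Among the phosphatases Dusp2 differed by 1.25, Dusp4 by -2.06 and Dusp6 by -0.99.

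Of 27 myeloid surface receptors 17 were higher with Torin1 and 3 with tamarixetin (median -0.46). The receptors for IgG diverged: Fcgr1, the high-affinity form, was at 1.59 and 1.44 with tamarixetin and -0.66 and -0.40 with Torin1, a difference of 2.04 ± 0.13 (SE, adjusted p = 0.00026), and Fcgr2b, the inhibitory form, was at -0.17 and 0.00 against 1.77 and 1.70, a difference of -1.82 ± 0.07. Tlr13, a sensor of bacterial RNA, differed by -2.27. Adgre1, the macrophage marker F4/80, was at 0.64 and 0.56 against 2.33 and 2.13. Of 14 osteoclast-type genes 9 were higher with Torin1 and 2 with tamarixetin; 4 of them, Ctsk, Clcn7, Tcirg1 and Atp6v0d2, also stand in the lysosome or V-ATPase lists. Acp5, the tartrate-resistant phosphatase, differed by -1.85, and Tnfrsf11a, the receptor RANK, by 1.14. Of 13 genes of antigen presentation 4 were higher with tamarixetin and 2 with Torin1, at 46.2% called close to the 43.2% of all genes, with Cd274, or PD-L1, at -1.99, H2-Eb1, a class II chain, at -1.76 and H2-DMa, of peptide loading, at 1.19.

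Genes measured with tamarixetin and not with Torin1 had an uneven place on the array. Between these groups, 82 called genes were well above background only with tamarixetin and had a bound over 1. Of these, 43 (52.4%) were read from the first 48 of the array's spot rows, which hold 12.01% of the genes tested. Of the 545 such genes measured with Torin1 and not with tamarixetin 63 (11.6%) came from those rows. Fmo1, a flavin monooxygenase in spot row 5, was at -2.44 and -1.30 with tamarixetin, -6.03 and -6.38 with Torin1 and -6.68 and -6.60 in control cells, at least 4.63-fold higher than with Torin1. Ctxn1 in row 13 and Stmn4 in row 7 had the same form, with bounds of 3.39-fold and 5.15-fold. Catsperz in row 3 was at -0.31 and -2.72 with tamarixetin, and its call was lost without tamarixetin replicate 1 or Torin1 replicate 2 (highest adjusted p = 0.093). Hspa1b in row 100 and Arc in row 273 lay outside these rows, and control cells stood beside tamarixetin there. Mxd1, an antagonist of MYC in row 32, was at -0.32 and -0.74 with tamarixetin, -1.98 and -1.98 with Torin1, and -2.15 and -2.17 in control cells. Of the 16 genes called between tamarixetin and control, 13 lay in the first 48 rows, and these 13 were also called higher with tamarixetin than with Torin1. They were well above background on no control, isorhamnetin or Torin1 array, so they entered the test only through tamarixetin. Both comparisons use the same tamarixetin arrays, so the second call is not separate evidence. The part of the place on the array in these differences was not tested.

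**Figure D5:**
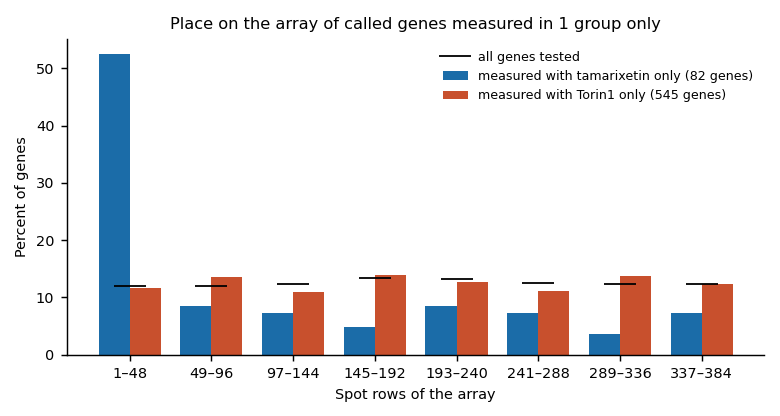
Percent of called genes measured with tamarixetin or Torin1 but not both, by the spot rows of the array (horizontal axis, bands of 48 rows). Blue bars are 82 genes measured with tamarixetin and not with Torin1. Orange bars are 545 measured with Torin1 and not with tamarixetin, and black lines are the genes tested. In the first band the blue bar reaches 52.4% beside 12.01% of the genes tested.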

How the data were processed

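The authors read 8 arrays of Cy3-labelled RNA with Agilent Feature Extraction 10.7.1.1, per the submitters' processing notes and the file headers. The deposited processed signal is an intensity, background-subtracted and spatially detrended within each array, per the file headers. The authors' deposited value table is in log2 units. It differed from the log2 signals by 1 constant per array and 1 per probe, within 0.01 for 100% of 56282 probes. Against that table, the levels used here shift tamarixetin minus Torin1 by -0.02. The median difference over all genes was 0.03 with the deposited values and 0.00 with the levels used here.

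From each log2 signal the array's 75th percentile over non-control spots was subtracted. Outlier spots were dropped (323 probes), and 27562 of 56605 probes were kept, those that Feature Extraction set well above background in some group on each of its arrays. A gene could thus enter the test through 1 group alone, such as the group where it was high. The probe with the highest mean level stood for a gene. Symbols came from RefSeq accessions (GRCm38.p6) for 32994 probes, and 8593 of the genes tested have none. All 8 arrays entered 1 fit with a mean per group in limma 3.58.1 (R 4.3.3), with 4 residual degrees of freedom and Benjamini-Hochberg adjustment over 21528 genes. Intervals are 95%. With 2 arrays a group an exact permutation test could not pass 0.05. The p-values rest on 2 arrays per group, which limits their precision. A lower bound sets the bright group's mean against, per array of the dim group, the higher of the lowest signal well above background and the probe's own signal. Alternatives were quantile and median scaling, normexp with an offset of 50, 3 other filters, the mean of a gene's probes, the deposited values, trend and robust variance, only the 4 arrays, a replicate block, no edge rows, and each array left out.

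The members and lists were chosen with earlier results of these data known. Genes are named from the 12 largest in each direction and up to 6 bounds per direction. The 12 were taken among called genes well above background on all 4 arrays, with no overlap between the groups. Those 12 and the bounds were limited to standard gene symbols, without clone, predicted-gene, locus or accession names. Up to 4 called members per list and a panel of 24 were added. Others, including Fmo1, Ctxn1, further list members and markers, were named after their values were seen. Rragd, of the panel, was not tested, and a few genes are not reported here. Same-numbered tamarixetin and Torin1 arrays did not deviate together (r = 0.01 across genes), so numbers were not taken as pairs.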

Additional observations from a re-analysis of the deposited data

How the results depend on the processing

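With each array left out in turn, 6833 to 8778 genes were called, 3539 to 4615 higher with tamarixetin and 3225 to 4163 higher with Torin1; 549 to 644 members of the lists were called (673 with all arrays) and 194 to 199 of the named genes (200). Quantile and median scaling gave 9296 and 9506 calls, normexp 8544, the deposited values 9302, trend and robust variance 9930 and the 4 arrays alone 7297. Without the filter on dim probes 45380 features were tested and 5684 called, 2794 higher with tamarixetin and 2890 with Torin1. A 2-fold minimum left 1465. The replicate block gave 8410 calls in the fit of 8 arrays. In the 4 arrays alone the block left 1449, 464 higher with tamarixetin and 985 with Torin1, with 183 list members and 133 named genes; that fit has fewer residual degrees of freedom, and the numbers do not pair the arrays. Without the edge rows FOXO targets higher with Torin1 became 6 of the members then tested and G1 genes higher with tamarixetin 10, and genes of the mTOR complexes higher with tamarixetin became 6 in the 4 arrays alone. Under quantile normalization the iron genes higher with Torin1 became 5. No named gene changed direction between the main fit and an alternative where either fit called it. Changes of sign where neither fit called the gene were not counted. Signal over background limits the low end: the lowest signal well above background was -3.71 and -3.68 on the tamarixetin arrays and -3.88 and -4.27 on the Torin1 arrays, so a gene can count as measured with Torin1 at a level that would not count with tamarixetin. Replicates differed with an SD over genes of 0.44 with tamarixetin and 0.37 with Torin1, against 0.26 in control.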

Other observations

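Genes of cell death and survival were split between the groups. Of 19 p53 targets 13 were higher with tamarixetin and 3 with Torin1 (median 0.50). Besides Cdkn1a these included Phlda3, an inhibitor of AKT (0.96), and Ccng1, a cyclin (0.61). The 3 on the other side were Plk2, a kinase that was at least 1.26-fold higher with Torin1, the death receptor Fas, at 0.94 and 0.78 with tamarixetin and 2.62 and 2.63 with Torin1, and Bbc3, or PUMA (-0.89). In the BCL2 family 5 of 13 members were higher with tamarixetin and 6 with Torin1, the 5 becoming 3 without Torin1 replicate 2. Promoters of death lay on both sides, Bmf at 1.61 ± 0.08 (SE) and Bcl2l11 at -1.98 ± 0.07. Mcl1, which protects from death, differed by -1.07.

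Metal genes differed by less than 2-fold where called. Of 13 metallothionein and zinc genes 5 were higher with tamarixetin and 3 with Torin1, the 5 becoming 3 without tamarixetin replicate 2. The 3 were Mt2 (-0.71), Slc30a1, a zinc exporter (-0.54), and Mt1 (-0.49). For the iron genes the share called was 40%, close to the 43.2% of all genes tested. For the aryl hydrocarbon receptor genes it was 33.3%, below that share. Of 10 iron genes 3 were higher with Torin1 and 1 with tamarixetin, the 3 becoming 1 without Torin1 replicate 2 and the 1 becoming 0 without tamarixetin replicate 1 or either Torin1 array. Of 6 aryl hydrocarbon receptor genes 2 were higher with Torin1, Tiparp, a target of that receptor (-0.54), and Arnt, its partner (-0.37), the second of which lost its call without either array of tamarixetin, Torin1 or isorhamnetin.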
